A study of Mus musculus and Rattus norvegicus with 18 samples.

Results

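A set of 8 muscle genes was followed through hearts with a conditional Mettl1 knockout, Mettl1-null cells and their controls. It holds the muscle ankyrin repeat genes Ankrd1, Ankrd2 and Ankrd23, the LIM-domain genes Csrp3, Fhl1 and Fhl2, and the Xin repeat genes Xirp1 and Xirp2. The set was chosen with earlier results of these data known. Its members were taken by symbol, and all 8 were found in each table, among 55487 gene IDs in heart RNA, 17866 genes in heart ribosome footprints and 32883 gene IDs in H9C2 RNA. Their proteins sit at places where a muscle cell bears force. The ankyrin repeat proteins bind titin in the I-band and also enter the nucleus, Csrp3 (muscle LIM protein) and the FHL proteins shuttle between the sarcomere and the nucleus, and the Xin proteins bind actin at the intercalated disc and the Z-disc. Ankrd1 is known as one of the genes that heart muscle switches on under load, and the group is often described as stretch sensors.

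Mettl1 is the enzyme that places N7-methylguanosine on a set of tRNAs, and the series asked which genes change in expression and in translation when it is lost. Whole hearts came from C57BL/6 mice 4 weeks old, either controls (Ctrl) or animals with a conditional Mettl1 knockout (cKO), and RNA-seq and Ribo-seq, which counts RNA fragments held by ribosomes, each had 2 Ctrl and 2 cKO libraries. H9C2, a line of myoblasts from embryonic rat heart, gave 3 wild-type libraries (WT) and 3 libraries of 1 line made Mettl1-null by a CRISPR-Cas9 frameshift, all unedited and edited cells being grown in high-glucose medium with serum. A further 4 heart tRNA libraries were not used here. The Cre driver, the deleted exon, pooling of animals and the alleles of the controls are not stated in the labels. The labels do not state that replicate libraries came from different animals or cultures, so each p-value reflects the spread between libraries, which may be technical.

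Library totals were 15.05 to 16.84 M counts in heart RNA, 25.17 to 39.68 M footprints and 90.32 to 94.20 M counts in H9C2. Mettl1 itself had a log2 fold change of −0.69 in heart RNA (adjusted p = 0.0664, edgeR), −1.54 in footprints (1.0e-04) and −1.93 in H9C2 (1.1e-05). Cardiomyocyte markers summed to 46195 to 47077 CPM (counts per M counts, after TMM scaling) in Ctrl heart RNA and 42741 to 42913 in cKO. In edgeR 6 of these 10 fell and 1 rose, where 6.26% of all tested genes fell and 8.16% rose. In footprints 4 fell and 1 rose (7.33% and 9.11% of all tested genes). The footprint sums were 111244 to 119029 CPM in Ctrl and 107502 to 112668 in cKO. In H9C2 the same 10 markers summed to 113 to 137 CPM, with Ryr2 and Myl2 at 0. Skeletal myoblast markers summed to 124 to 148 CPM in WT and 200 to 220 in null cells, with Myf5, Pax7 and Pax3 at 0. In WT cells, fibroblast markers summed to 9351 to 9817 CPM and smooth muscle markers to 5951 to 7267. With cardiomyocyte markers far below their heart level, these cells are called H9C2 cells and not cardiomyocytes, and no other cell type is given to them. In bulk samples, fewer cells of a type and less RNA per cell cannot be told apart.

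The stretch of DNA before a listed start is shown for the ankyrin repeat genes and for Fhl2, which fell. Of the ankyrin repeat genes, Ankrd1 and Ankrd23 rose in the heart in both assays. A script searched the table of RefSeq promoters (GRCm38.p6; 250 bases before the start and 50 after) on both strands for the M-CAT motif of TEAD factors (CATTCC), the TATA box (TATAAA), the CArG box of SRF and the MEF2 box, which are in capitals, and for shorter motifs that are not, namely the E box (CANNTG), the GATA factor motif (GATAA) and the NKX2 motif (AAGTG). The table held 11 windows for 7 members, each set on a listed start. Of the stretches printed, only that of Ankrd1 lies before its whole RefSeq gene record. Those of Ankrd23, Ankrd2 and Fhl2 lie inside their gene records, before starts further in. The Ankrd23 stretch before its gene record (chr1:36536557-36536806) is not printed. Ankrd1 (minus strand, chr19:36119845-36120094), Ankrd23 (minus strand, chr1:36535740-36535989) and Ankrd2 (plus strand, chr19:42035927-42036026) come first, followed by both listed starts of Fhl2 (minus strand, chr1:43163962-43164061 and chr1:43196762-43196861).
Ankrd1: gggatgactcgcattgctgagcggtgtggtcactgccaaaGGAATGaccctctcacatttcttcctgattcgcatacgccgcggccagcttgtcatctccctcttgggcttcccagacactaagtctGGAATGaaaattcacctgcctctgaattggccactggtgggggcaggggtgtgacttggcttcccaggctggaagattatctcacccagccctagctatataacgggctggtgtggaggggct
Ankrd23: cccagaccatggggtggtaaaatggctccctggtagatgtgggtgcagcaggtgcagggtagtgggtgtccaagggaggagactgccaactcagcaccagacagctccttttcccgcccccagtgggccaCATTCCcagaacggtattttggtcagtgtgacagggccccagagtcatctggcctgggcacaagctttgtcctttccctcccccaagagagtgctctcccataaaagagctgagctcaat
Ankrd2: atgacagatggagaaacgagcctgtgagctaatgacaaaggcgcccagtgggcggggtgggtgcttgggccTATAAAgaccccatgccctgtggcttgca
Fhl2 inner start: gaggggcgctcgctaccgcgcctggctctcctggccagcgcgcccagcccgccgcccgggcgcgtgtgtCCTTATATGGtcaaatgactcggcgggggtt
Fhl2 outer start: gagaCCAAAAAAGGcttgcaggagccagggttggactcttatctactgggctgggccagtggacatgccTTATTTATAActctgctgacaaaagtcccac

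The Ankrd1 window held the M-CAT letters at 2 places, from −210 to −205 and from −123 to −118 relative to the start, both on the reverse strand, where they read GGAATG. Ankrd23 held them from −120 to −115, and a second Ankrd23 window held them after its start. CATTCC stood in 3 of the 11 member windows and in 14.7% of all 32851 windows in the table. Ankrd2 had a TATA box from −29 to −24, a motif found in 3 member windows and 13.6% of all. Both Fhl2 windows held a CArG box, from −31 to −22 and from −96 to −87, and the second window had a MEF2 box from −31 to −22. CArG boxes stood in 3 member windows and 1.63% of all windows, MEF2 boxes in 2 and 3.19%. The CArG box outside Fhl2 lay in an Fhl1 window, from −102 to −93. The MEF2 box outside Fhl2 lay in the Xirp2 window, from −74 to −65. Fhl1 and Xirp2 both rose in heart RNA. The Fhl2 MEF2 box overlaps a TATAAA match on the reverse strand, from −28 to −23. CANNTG stood in 10 member windows (72.3% of all), GATAA in 4 (25.4%) and AAGTG in 4 (46.4%). These are matches of letters in a window. They do not show binding.

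In heart RNA, Ankrd1, Ankrd23, Csrp3, Xirp2 and Fhl1 rose, Fhl2 fell, and Xirp1 did not pass. Ankrd2 also passed, but it met the count filter only through its cKO libraries, so that it had to differ if it was tested at all. The test was edgeR's quasi-likelihood test over 14088 genes at a Benjamini-Hochberg adjusted p under 0.05, by which 14.4% of all tested genes passed, 8.16% higher and 6.26% lower. With Ankrd2 left out, Ctrl and cKO libraries were fully apart for 6 higher genes and 1 lower gene of 7. This held for 55.0% of all tested genes, 27.8% higher and 27.2% lower. The median log2 fold change was 0.45 over the 7 genes without Ankrd2 and 0.58 with it, against −0.00013 over all tested genes.

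**Figure D1:**
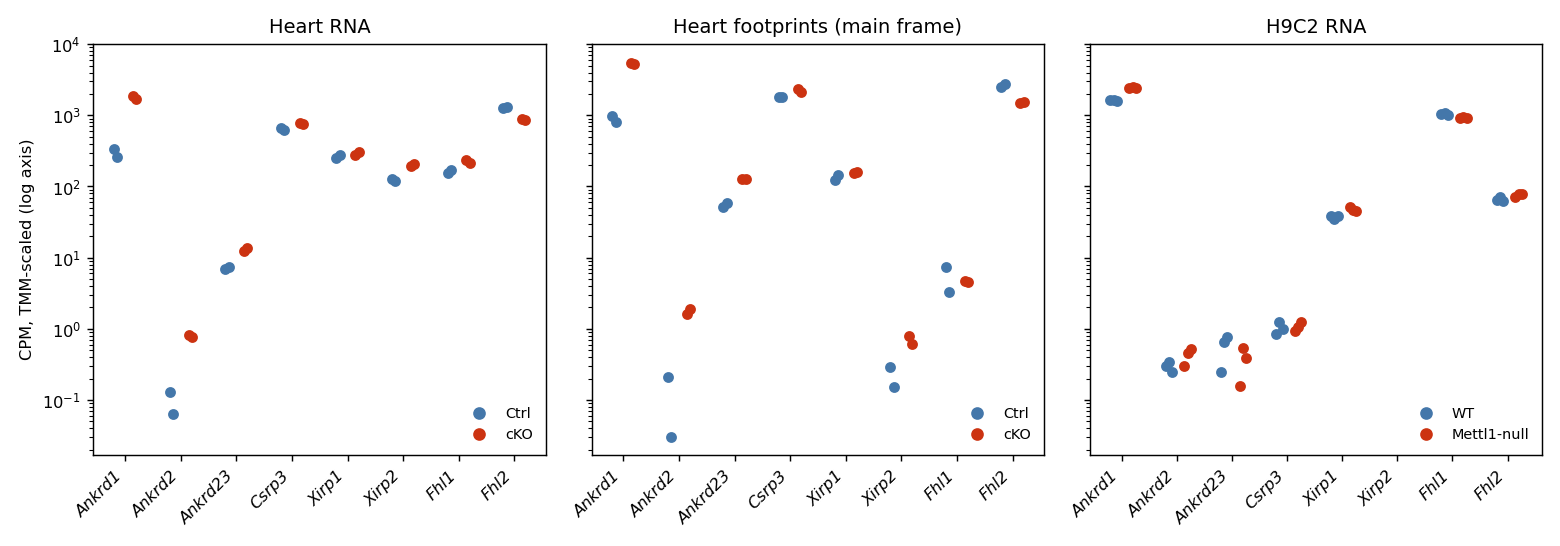
Level of each of the 8 genes in every library (y axis, CPM on a log axis) in heart RNA, heart footprints and H9C2 RNA, 1 point a library. Ankrd1 in heart RNA goes from 333 and 262 CPM to 1896 and 1724, and Xirp2 has no point in H9C2 because all 6 libraries are at 0.

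Ankrd1 (ENSMUSG00000024803, chromosome 19, 36111965 to 36119844) encodes the cardiac ankyrin repeat protein. Its heart RNA was at 333 and 262 CPM in the Ctrl libraries and at 1896 and 1724 CPM in the cKO libraries. Its share of all counts went from 0.0324% and 0.0254% to 0.195% and 0.177%. The cKO libraries were 6.08-fold above Ctrl on average, a log2 change of 2.60 (SE 0.09, n = 2 against 2, adjusted p = 5.1e-11 in edgeR). Footprints on Ankrd1 stood at 982 and 819 CPM in Ctrl and at 5496 and 5229 CPM in cKO, a log2 change of 2.57 (SE 0.09, adjusted p = 7.9e-11). In cKO hearts 0.561% and 0.538% of all footprints lay on this gene, against 0.0949% and 0.0807% in Ctrl.

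Ankrd2 (ENSMUSG00000025172, chromosome 19, 42035917 to 42045111), which is known mainly from slow skeletal muscle, was near the limit of detection. Heart RNA gave 2 and 1 counts in Ctrl and 14 and 12 in cKO. The ratio of the summed counts was 8.74 (95% interval 2.68 to 45.1, counting error only). The fitted log2 fold change was 2.95 (SE 0.70, adjusted p = 0.0098 in edgeR), and it did not pass in DESeq2 (0.111), nor when Ctrl 2, cKO 1 or cKO 2 was left out (0.0655 to 0.0901). Footprints gave 5 and 1 counts in Ctrl against 65 and 66 in cKO, a ratio of 17.5 (7.81 to 48.4) and a fitted log2 fold change of 3.99 (SE 0.60, adjusted p = 2.9e-04), which was 5.70 without Ctrl 1 and 3.06 without Ctrl 2. Of 11 skeletal fibre markers, 5 were tested in the same heart RNA, where 3 rose and 0 fell (8.16% of all tested genes rose). Their sum was 170 to 173 CPM in Ctrl and 174 to 202 in cKO. In footprints 9 were tested, and 4 rose and 0 fell (9.11% of all rose). That sum did not rise, at 479 to 512 CPM in Ctrl and 454 to 490 in cKO. The part of these markers in the Ankrd2 values was not tested. Mylpf, a skeletal light chain, was at 0.575 ± 0.358 CPM in Ctrl and 2.62 ± 0.140 in cKO (SD, n = 2 each). All 8 skeletal myoblast markers summed to 0.064 to 0.25 CPM in Ctrl and 0.32 to 0.69 in cKO heart RNA. Of these 8, Myog, Myf6 and Pax7 were at 0, and 0 met the count filter.

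Ankrd23 (ENSMUSG00000067653, chromosome 1, 36530193 to 36536556), the remaining member of the ankyrin repeat family, rose from 6.89 and 7.32 CPM to 12.5 and 13.8 CPM in heart RNA. Its log2 fold change was 0.89 (SE 0.14, adjusted p = 4.7e-04 in edgeR). Its footprints went from 51.9 and 58.6 CPM to 129 and 127 CPM, or 1.21 (SE 0.09, adjusted p = 2.8e-07). Ankrd1 and Ankrd23 were thus higher in cKO hearts in both assays, at very different levels.

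**Figure D2:**
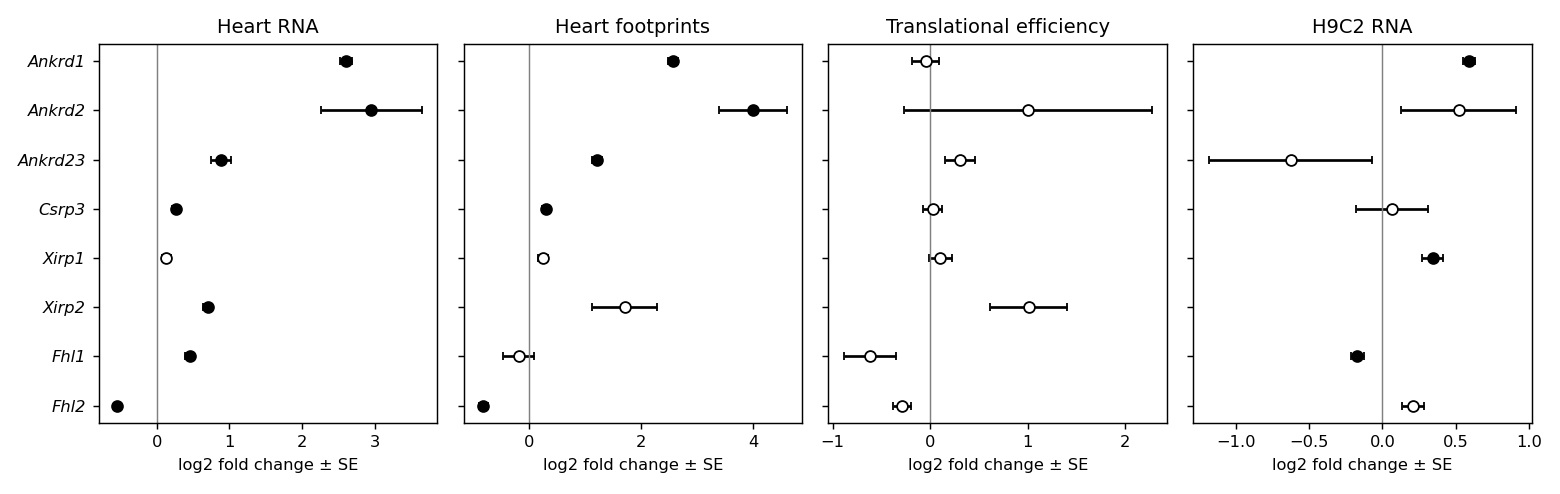
Log2 fold change (x axis) with its SE for each of the 8 genes in heart RNA, heart footprints, translational efficiency and H9C2 RNA. Filled points passed an adjusted p of 0.05; no translational efficiency point is filled, and Xirp2 has none in H9C2.

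The LIM-domain genes went different ways. Csrp3 (ENSMUSG00000030470, chromosome 7, 48830398 to 48848051), which encodes muscle LIM protein, stood at 666 and 632 CPM in Ctrl and 789 and 766 in cKO heart RNA. The rise was 0.26 on the log2 scale (SE 0.05, adjusted p = 0.0026 in edgeR). In footprints it went from 1832 and 1794 CPM to 2369 and 2114, or 0.31 (SE 0.08, adjusted p = 0.0143), and the call was lost without cKO 1 (0.299). Csrp3 was thus among the more abundant of the 8 genes and had one of the smaller changes.

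Fhl2 (ENSMUSG00000008136, chromosome 1, 43123071 to 43198343), a cofactor of SRF and other regulators in heart muscle, was the only one of the 8 genes to fall in heart RNA. Ctrl libraries had 1256 and 1291 CPM and cKO libraries 883 and 869, a log2 change of −0.54 (SE 0.05, adjusted p = 2.4e-06 in edgeR). Footprints on it went from 2507 and 2755 CPM to 1469 and 1533, or −0.81 (SE 0.08, adjusted p = 4.5e-06). The same direction and the same side of the threshold were found in every alternative tried for these 2 comparisons.

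Fhl1 (ENSMUSG00000023092, chromosome X, 56731209 to 56793346), a Z-disc protein whose mutations cause muscle disease, rose in heart RNA from 155 and 173 CPM to 232 and 216, or 0.45 (SE 0.07, adjusted p = 2.5e-04 in edgeR). Its footprints did not show a difference. They stood at 7.32 and 3.28 CPM in Ctrl and at 4.69 and 4.47 in cKO, so that both cKO libraries lay between the Ctrl libraries. The log2 fold change was −0.18 (SE 0.28, adjusted p = 0.733), and it was 0.48 without Ctrl 1 and −0.68 without Ctrl 2 (adjusted p = 0.0451). The RefSeq gene records Gm23258, Gm13601 and Gm8210 overlap Fhl1, Xirp2 and Fhl2, and reads from an overlapping gene on the other strand cannot be told apart where strand is not stated.

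The Xin repeat genes also differed between themselves. Xirp2 (ENSMUSG00000027022, chromosome 2, 67446000 to 67526620) rose in heart RNA from 127 and 119 CPM to 191 and 209, or 0.70 (SE 0.07, adjusted p = 4.1e-06 in edgeR). Its footprints were very few, at 7 and 5 counts in Ctrl and 32 and 21 in cKO, a ratio of 3.53 (1.86 to 7.26, counting error only) with a log2 change of 1.71 (SE 0.59, adjusted p = 0.0610). Xirp1 (ENSMUSG00000079243, chromosome 9, 120013755 to 120023598) stood at 253 and 274 CPM in Ctrl and 274 and 302 in cKO, or 0.13 (SE 0.06, adjusted p = 0.202). Its footprints went from 122 and 144 to 155 and 160 CPM, or 0.25 (SE 0.09, adjusted p = 0.0754). Scaling by library totals took Xirp1 past the threshold in heart RNA (0.0335) and in footprints (0.0274), and Xirp2 in footprints (0.0493). Xirp1 footprints also passed without Ctrl 2 (0.37, adjusted p = 0.0123), summed over all frames (0.0340) and with a filter of at least 1 count (0.0380), and had 0.13 without Ctrl 1 (adjusted p = 0.350). In heart RNA, Xirp1 had 0.056 to 0.20 when 1 library was left out.

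In footprints as a whole, Ankrd1, Ankrd23 and Csrp3 rose, Fhl2 fell, and Fhl1 and Xirp1 did not pass. Ankrd2, which passed, and Xirp2, which did not, met the count filter only through their cKO libraries. Over all genes, 16.4% of 13514 tested genes passed, 9.11% higher and 7.33% lower. With Ankrd2 and Xirp2 left out, libraries did not overlap for 4 higher genes and 1 lower gene of 6. This held for 55.9% of all tested genes, 28.7% higher and 27.1% lower. The median log2 fold change was 0.28 over the 6 genes without Ankrd2 and Xirp2, 0.76 over all 8 and 0.004 over all tested genes. Footprint and RNA libraries of a genotype were compared in 1 model to give translational efficiency, the change in footprints beyond the change in RNA. It passed for 0 of the 8 genes in edgeR, where 0.126% of 12662 tested genes passed, 0.0711% higher and 0.0553% lower. In DESeq2, which gave an adjusted p for 7 of the 8 but not for Ankrd2, it passed for 0, with 9 genes higher and 31 lower over all genes. With Ankrd2 and Xirp2 left out, Fhl2 and Fhl1 of the 6 genes had an unadjusted p under 0.05, as had 9.69% of all tested genes. Fhl2 had −0.29 (SE 0.09, adjusted p = 0.334 in edgeR) and Fhl1 −0.62 (SE 0.27, adjusted p = 0.477). Xirp2 also had an unadjusted p under 0.05 (1.01, SE 0.39, adjusted p = 0.435). Its footprints met the filter only through cKO libraries, so a higher value was favoured in advance. Ankrd1 had −0.05 (SE 0.14, adjusted p = 0.952), so its footprints and its RNA rose by amounts that could not be told apart here. The Fhl1 value moved to −1.21 without the Ctrl 2 libraries (adjusted p = 0.0077) and to 0.09 without Ctrl 1.

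The genes differed widely in how many footprints they had for their RNA in Ctrl hearts. The ratio below sets footprints on the main frame against RNA counts of the whole gene. It is not corrected for length or for other frames, so it compares genes only roughly. The log2 ratio of footprint CPM to RNA CPM was 2.96 for Ankrd23, at the percentile 99.5 of 12662 genes, 1.60 for Ankrd1 (95.7), 1.48 for Csrp3 (94.6) and 1.05 for Fhl2 (88.1). Ankrd2 had 0.31 (69.7), on very few counts. Xirp1 had −0.99 (31.3), while Fhl1 had −4.95 (1.52) and Xirp2 −9.12 (0.0711). The listed frames of Fhl1 and Xirp2 thus held few footprints for genes with 164 and 123 CPM of RNA in Ctrl, and whether the frames listed are those translated in heart was not tested.

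Per codon, the order of the genes changed. Footprint CPM per codon was highest for Fhl2 in Ctrl hearts, at 8.89 and 9.82, followed by Csrp3 at 9.35 and 9.20, and these did not differ beyond their spread. Ankrd1 came next in Ctrl at 3.05 and 2.55 and first in cKO at 17.0 and 16.1, above Csrp3 at 12.1 and 10.7 and Fhl2 at 5.21 and 5.41. Ankrd23 (0.179 in Ctrl and 0.412 in cKO on average) and Xirp1 (0.116 and 0.138) held the fourth and the fifth place in both genotypes. Fhl1 (0.0177 and 0.0153), Ankrd2 (3.6e-04 and 0.0053) and Xirp2 (5.8e-05 and 1.8e-04) followed, and the lower places kept their order.

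**Figure D3:**
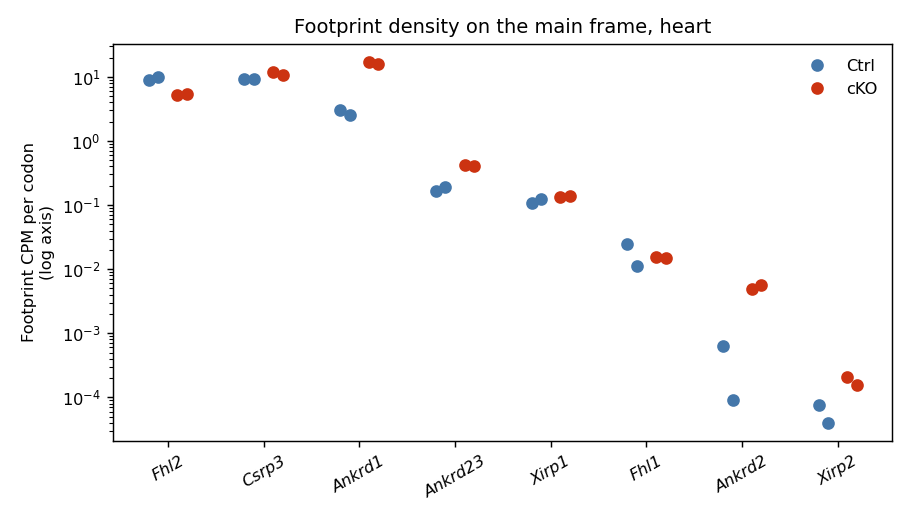
Footprint CPM per codon of the main frame (y axis, log axis) in each heart library, genes in the order of their Ctrl level. Ankrd1 lies under Fhl2 and Csrp3 in Ctrl and above both in cKO, where its libraries are at 17.0 and 16.1.

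The footprint table lists several open reading frames for some of the genes, and the frame with the most footprints was taken as the main one. Ankrd1 has 4. The main frame, of 319 codons, held 99.98% of the gene's footprints. An upstream frame of 45 codons (chr19:36119914-36120051, minus strand) begins with ATG at −207 and ends with TGA at −70 relative to the RefSeq start, so it lies in the promoter shown above and wholly before the start of the RefSeq gene. Its first codon is the end of the upstream GGAATG. It had 12 and 10 footprints in Ctrl and 21 and 22 in cKO, a log2 change of 0.54 (SE 0.56, adjusted p = 0.610) in a fit with every frame as a feature, where 12.8% of 17188 frames passed.

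Footprints on this upstream frame per 1000 on the main frame were 0.508 and 0.371 in Ctrl and 0.0954 and 0.121 in cKO. The cKO libraries were both below the Ctrl libraries, as for 17.5% of all 3635 frames tested this way (23.7% were above). Measured against the main frame, the log2 fold change was −2.01 (SE 0.63, unadjusted p = 0.0026), which did not pass after adjustment over these frames (adjusted p = 0.113 in edgeR; 1.29% of them passed, and 1.03% of the 2417 upstream ones). This comparison was added after the data were seen. At 10 to 22 footprints a library, the change of the upstream frame is poorly measured. The 2 downstream frames, of 67 and 43 codons, had at most 12 footprints a library.

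Fhl2 has 3 listed frames. The main frame of 279 codons held 95.2% of footprints, and an upstream frame of 33 codons (chr1:43153247-43196744, minus strand) held 4.72%. That frame fell with the main one, by 0.64 on the log2 scale (SE 0.08, adjusted p = 1.3e-04), and against the main frame it had 0.17 (adjusted p = 0.796). A second upstream frame of 18 codons (chr1:43196861-43196917) had 102 and 87 footprints in Ctrl and 38 and 35 in cKO. It fell by 1.80 (SE 0.31, adjusted p = 0.0015), and against the main frame the value was −1.004 (unadjusted p = 0.0046, adjusted p = 0.142), and it was −0.55 without Ctrl 1 and −1.37 without Ctrl 2. Xirp1 has a downstream frame of 496 codons with 16.0% of its footprints, which rose by 0.57 (SE 0.12, adjusted p = 0.0042) where the main frame of 1132 codons had 0.24 (adjusted p = 0.108). The difference between the 2 frames did not pass (0.34, adjusted p = 0.488). A second Xirp2 frame and the second Ankrd23 frame were listed at 0 in all libraries.

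**Figure D4:**
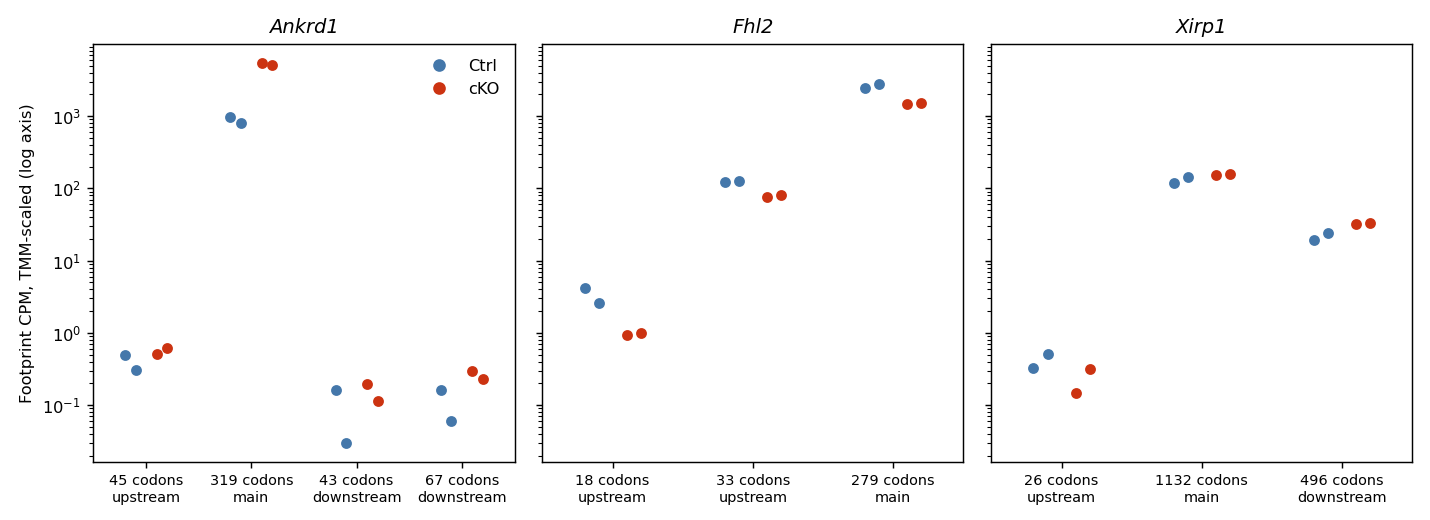
Footprints on each listed frame of Ankrd1, Fhl2 and Xirp1 (y axis, CPM on a log axis), frames ordered from upstream to downstream, 1 point a library. The Ankrd1 main frame is higher in both cKO libraries while its 45-codon upstream frame holds 10 to 22 footprints a library, and both upstream Fhl2 frames are lower in cKO.

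In H9C2, Ankrd1 and Xirp1 were higher in null cells, Fhl1 was lower, 4 genes did not pass and Xirp2 was at 0 in all 6 libraries. Of 14801 tested genes 25.1% passed, 13.6% higher and 11.5% lower. Ankrd1 stood at 1644, 1632 and 1573 CPM in WT and at 2405, 2467 and 2426 CPM in null cells, a log2 change of 0.59 (SE 0.04, n = 3 against 3, adjusted p = 3.2e-05 in edgeR). The null libraries were all above the WT libraries, and whether this rise differs from that in heart was not tested. Xirp1 went from 38.9, 35.3 and 38.8 CPM to 51.4, 46.8 and 45.2, or 0.34 (SE 0.07, adjusted p = 0.0087), and held in each alternative run on it (adjusted p at most 0.0400).

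Fhl1 was at 1046, 1066 and 1005 CPM in WT and at 914, 945 and 907 in null cells, with no overlap. The call (log2 fold change −0.17, SE 0.04, adjusted p = 0.0230 in edgeR) was lost without WT 1, null 1, null 2 or null 3 (0.0583 to 0.114). Fhl2 was at 63.7, 71.6 and 61.6 CPM in WT and at 70.3, 78.6 and 78.9 in null cells, or 0.21 (SE 0.07, adjusted p = 0.0714), passing with library totals (0.0323) and without WT 2 (0.0137). Ankrd2 (0.52, adjusted p = 0.383), Ankrd23 (−0.63, adjusted p = 0.462) and Csrp3 (0.06, adjusted p = 0.880) were at 0.157 to 1.25 CPM in every library. Xirp2 had 0 counts in each library, which allows up to 0.0318 to 0.0332 CPM if the table's values are counted reads. Libraries did not overlap for 2 higher and 1 lower member, against 42.6% of all tested genes, 22.8% higher and 19.8% lower.

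By the distance over 3 log2 fold changes (heart RNA, heart footprints, H9C2), the genes with the pattern most like Ankrd1 among 9952 tested in all 3 were Nppb (distance 0.46), Kcnj4 (0.62), Phlda3 (0.63) and Mylpf (0.67). Nppb, the gene of brain natriuretic peptide, had 2.62 in heart RNA and 2.30 in footprints. Its H9C2 value of 0.96 did not pass (adjusted p = 0.131). Phlda3 had 2.05, 2.40 and 0.34 and passed in each of the 3 (H9C2 adjusted p = 0.0033, edgeR). These genes were picked by these same values, so their large rises in heart follow from the choice.

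Genes around the members were read from 6 lists, with the members left out. Beside each count below stand the shares over all tested genes. These were 8.16% higher and 6.26% lower in heart RNA, 9.11% and 7.33% in footprints, and 13.6% and 11.5% in H9C2. No list was tested against these shares, and some counts lie near them. Titin, Z-disc and filament partners held 12 genes that rose and 8 that fell of 28 tested in heart RNA (median 0.11). Desmin (Des, 0.51), filamin C (Flnc, 0.63), Synpo2l (0.71) and Sorbs2 (0.67) were the 4 with the smallest p. In footprints 9 rose, among them Cavin4 (0.71) and Flnc (0.78), and 8 fell, among them Pdlim5 (−0.81). In H9C2 the list had 9 higher and 4 lower of 25, with Des at 1.42, Synpo2 at 0.81 and Sorbs2 at 0.50.

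Genes of the costamere and intercalated disc, where the Xin proteins sit, held 0 that rose and 8 that fell of 29 in heart RNA in edgeR (0 and 11 at an unadjusted p under 0.05; median −0.09). Itgb1bp2, which encodes melusin, fell by 0.54, Dmd (dystrophin) by 0.44, the catenin Ctnna3 by 0.52 and desmoplakin (Dsp) by 0.21. In footprints 2 rose and 8 fell, with Ctnna3 at −0.85, Itgb1bp2 at −0.56 and Dsp at −0.39. The H9C2 list had 5 higher and 6 lower of 26, with Itga7 at 0.68 and zyxin (Zyx) at −0.79. Other LIM-domain genes had 3 higher and 4 lower of 27 in heart RNA, among them Lmcd1 (0.68), Nrap (0.38), Ablim1 (−0.38) and Crip2 (−0.31). In footprints 4 were higher and 5 lower of 27 (median −0.07), with Lmcd1 at 0.84, Pdlim5 at −0.81 and Nrap at 0.52. In H9C2 6 were higher and 5 lower of 27. There Zyx was at −0.79. Crip2 at 1.62 and Lmcd1 at −0.78 were opposite in direction to heart.

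Transcriptional regulators tied to the members, among them the factors whose motifs were searched, had 1 higher and 3 lower of 23 in heart RNA. These were Gata4 (0.20), Tbx5 (−0.56), Mef2a (−0.31) and Mef2d (−0.23). In footprints 1 rose and 5 fell of 22, with Tbx5 at −0.76, Srf at −0.43 and Mef2a at −0.29. In H9C2 Gata4 (0.60), Mef2c (0.37) and Tead2 (0.36) were among 4 higher, and 3 were lower of 21.

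Target genes of YAP and TEAD, of which Ankrd1 is a textbook example, had 5 higher and 0 lower of 21 in heart RNA in edgeR (6 and 2 at an unadjusted p under 0.05; median 0.09). Ccn2 rose from 120 ± 5.37 to 359 ± 13.4 CPM (SD, n = 2 each; log2 1.58, adjusted p = 2.5e-10), Tgfb2 by 1.11, Ccn1 by 0.63 and Nt5e by 0.62. In footprints 6 rose, with Ccn2 at 1.54, Tgfb2 at 1.44 and Gadd45a at 0.65, and 1 fell. In H9C2 10 rose and 0 fell of 20 in edgeR (12 and 0 unadjusted; median 0.31), with Tgfb2 at 0.93, Ccn2 at 0.90 and F3 at 0.44. Load-responsive heart genes had 11 higher and 1 lower of 20 in heart RNA (median 0.40). Nppa (3.60), Acta1 (2.78), Nppb (2.62) and Hspb1 (1.498) were the 4 with the smallest p. In footprints 10 rose and 1 fell, with Nppa at 3.62, Acta1 at 2.83 and Nppb at 2.30. In H9C2 8 rose and 0 fell of 17 in edgeR (10 and 2 unadjusted), with Hspb7 at 1.27, Postn at 0.94 and Hbegf at 0.68.

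**Figure D5:**
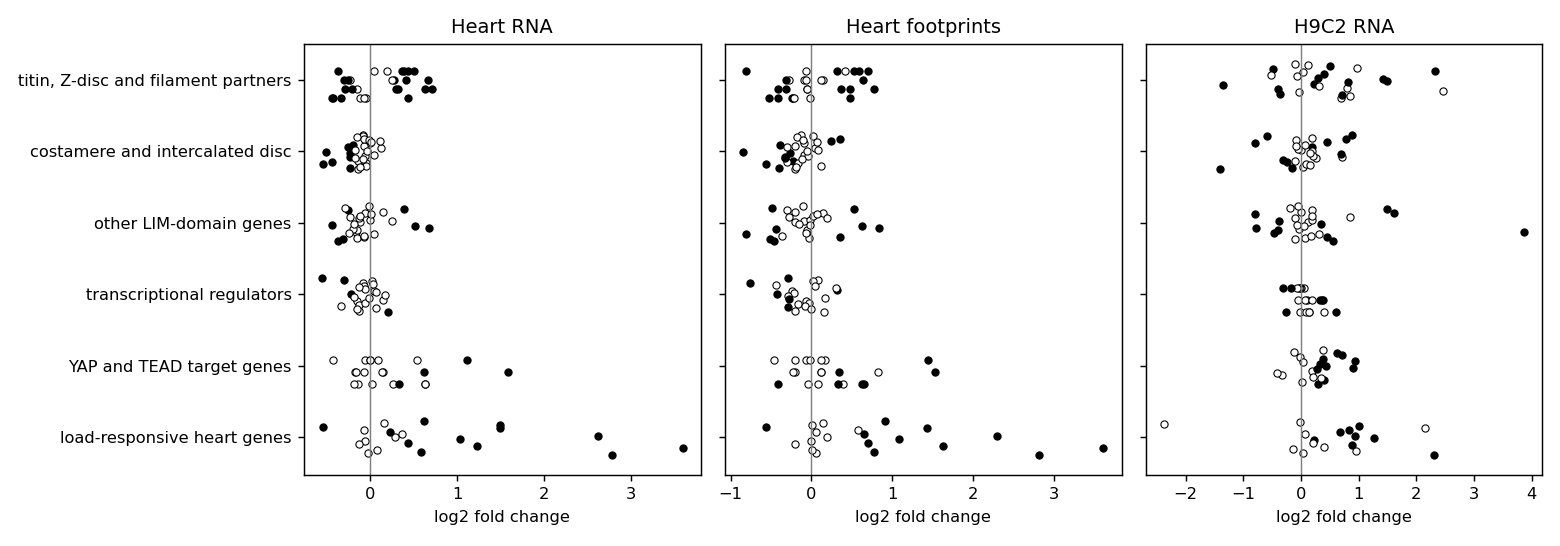
Log2 fold change (x axis) of each gene of the 6 lists in heart RNA, heart footprints and H9C2, members left out, 1 point a gene. Filled points passed an adjusted p of 0.05; the load-responsive list reaches furthest to the right in heart, with Nppa at 3.60.

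Markers of other cells that heart tissue can hold are given beside these values. Of 8 atrial markers in heart RNA, Nppa and Bmp10 rose and Kcnj3 and Stard10 fell. Sln, Myl4, Myl7 and Dkk3 did not pass. Their sum was 272 to 314 CPM in Ctrl and 855 to 1144 in cKO. In footprints 1 of the 8 rose and 2 fell, with sums of 524 to 711 CPM in Ctrl and 3895 to 5129 in cKO. Of all tested genes 8.16% rose and 6.26% fell in heart RNA, and 9.11% and 7.33% in footprints. Of the erythroid markers 3 of 5 rose in heart RNA. There 0 fibroblast, pericyte and macrophage markers passed in edgeR (1, 3 and 2 at an unadjusted p under 0.05). Endothelial and smooth muscle markers had 2 lower each, of 7 and 5. In H9C2, where Ankrd1 and Xirp1 rose, the fibre markers summed to 256 to 298 CPM in WT and 396 to 425 in null cells and the fibroblast markers to 9351 to 9817 and 7736 to 8164. The smooth muscle markers had 4 higher and 0 lower of 5, with sums of 5951 to 7267 CPM in WT and 6812 to 7107 in null cells, and the pericyte markers 1 higher and 3 lower of 4, with 584 to 667 and 487 to 526 CPM and Rgs5 at 0. Their part in the values of the 8 genes was not tested.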

How the data were processed

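The deposited heart RNA and H9C2 tables hold counts of reads per gene and the deposited Ribo-seq table counts of footprints per frame, as whole numbers and not normalized by the authors. Per the submitters' processing notes the builds were GRCm38 (mouse) and Rnor_6.0 (rat), and the tools included the aligners STAR and HISAT2 and the counters featureCounts and StringTie. No label ties a tool or a strand setting to a table. The H9C2 columns are named like annotation files, so its whole numbers may be counts estimated by StringTie and not counted reads.

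The members and gene lists were chosen with earlier results of these data known. Columns were matched to samples by name and mouse IDs to symbols (55141 of 55487). Each comparison was fitted over all genes with edgeR 4.0.16 (R 4.3.3; TMM, filterByExpr, glmQLFit and glmQLFTest, two-sided), with Benjamini-Hochberg adjustment at 0.05. Translational efficiency was the interaction of genotype and assay over the 8 heart libraries. The SE was the absolute log2 fold change over the square root of F. One frame, that with the most footprints, was kept per gene. Frames were tested against it with its log count as offset where it had at least 10 footprints in every library. Named were all members and, per list, the 4 genes (heart RNA) or 3 genes (footprints, H9C2) with the smallest adjusted p; the 5 genes most like Ankrd1 were those closest in the 3 fold changes. Not every gene that these rules name is reported here. Mettl1 was the label check, and marker genes were named after their values were seen. Promoter sequences are RefSeq's (GRCm38.p6), with 7 of 8 members matched. The scripts were tested on simulated data. DESeq2 1.42.0 served as an alternative.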

Additional observations from a re-analysis of the deposited data

Results flagged for a closer look

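Fhl1 differed in sign between heart RNA and H9C2. Its log2 fold change was 0.45 in heart RNA and −0.17 in H9C2, every cKO heart library lay above every Ctrl library and every null library below every WT library. Over all genes, libraries were apart in these directions for 27.8% in heart RNA and 19.8% in H9C2. The H9C2 call (adjusted p = 0.0230, edgeR) was lost without WT 1, null 1, null 2 or null 3 (0.0583 to 0.114), and heart footprints showed no difference (−0.18, adjusted p = 0.733). The difference itself was not tested, since the tables hold different species.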

How the results depend on the processing

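Under scaling by library totals, the median over all genes shifted by 0.08 in heart RNA, 0.07 in footprints and 0.04 in H9C2 (log2). This gave 1769 higher and 506 lower genes in heart RNA against 1150 and 882, and 657 lower genes in footprints against 990, so that higher genes made up 77.8% and 71.4% of calls in place of 56.6% and 55.4%. DESeq2 called 623 higher and 457 lower genes in heart RNA, and 31 lower genes for translational efficiency against 7. Leaving out each library in turn gave 634 to 1069 higher and 521 to 933 lower genes in heart RNA, with both lowest counts without cKO 1. In footprints it gave 667 to 1010 higher and 481 to 930 lower genes, the lowest again without cKO 1 (637 lower without cKO 2), and in H9C2 1006 to 2110 lower genes. For translational efficiency it gave 2 to 4 higher and 0 to 7 lower genes. Members called lower were 1 to 2 in footprints and 0 to 1 in translational efficiency, where Fhl1 passed without Ctrl 2, and 0 to 1 in H9C2.

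Within each assay, replicate numbers did not pair the libraries of the compared groups. Same-numbered deviations correlated at 0.03 in heart RNA, −0.02 in footprints and 0.0003, 0.12 and −0.16 in H9C2. With the number as a replicate block, calls in heart RNA were 1455 and 1290, and 0 members were lower in H9C2. There Fhl1 had an adjusted p of 0.0564 in edgeR. For translational efficiency, the block tied RNA and footprint libraries of the same genotype and number. It gave 48 higher and 86 lower genes, against 9 and 7 without it. Whether those RNA and footprint libraries came from the same hearts was not checked. Xirp1 footprints passed with the block (0.0203).

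Directions reversed among the fits without 1 library for Fhl1 footprints (−0.68 to 0.48, the last without Ctrl 1; −0.68 to 0.47 with every frame a feature) and for Csrp3 in H9C2 (−0.067 to 0.23, below 0 without WT 1 or null 3, at −0.055). In translational efficiency they reversed for Fhl1 (−1.21 to 0.088, above 0 without Ctrl 1), Ankrd1 (−0.096 to 0.0053, above 0 without cKO 1) and Csrp3 (−0.016 to 0.11, below 0 without cKO 1). The cause was not tested. In the 100 bases before the start, CATTCC stood in 0 member windows, GATAA in 2 and AAGTG in 0. A further 320 member, 98 frame and 157 count values kept their direction and side of the threshold or stayed within 1.5 times. Against the main frame, the Ankrd1 upstream frame had −2.22 to −1.77 without each library. List counts were not recomputed. Depth limits Ankrd2, the upstream frames and the footprints of Fhl1 and Xirp2.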
